A study of Drosophila melanogaster with 27 samples.

Results

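The changes shared by mutant eye discs of Drosophila melanogaster were measured as the equal-weight mean of 8 mutant groups, which hold 23 of the 27 arrays of the study. Members were all arrays whose titles name a mutant genotype. Each glass array was printed with PCR products and carried 2 RNAs, a test RNA in one dye and a common reference in the other. A value is the log2 ratio of test over reference, adjusted for dye where it is a mean, and ± gives its standard error. The reference came from whole eye-antennal discs of w1118 wandering third-instar larvae, which develop normal eyes without pigment.

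The mutant test RNA came from eye-antennal discs of wandering third-instar larvae. roughDominant (roDom) was sampled as homozygotes on 3 arrays and as heterozygotes on 2 arrays. E(roDom)2033, an uncharacterised mutation that enhances roDom, was sampled as homozygotes on 3 arrays and as heterozygotes on 2 arrays. The atonal allele ato1 was homozygous on 3 arrays and the hedgehog allele hh1 was homozygous on 4 arrays. The rough allele roX63 and the roDom suppressor Su(roDom)519 had 3 arrays each, with no zygosity stated. The morphogenetic furrow stops in the discs of roDom, E(roDom)2033, ato1 and hh1, whereas too many R8 cells form in those of roX63 and Su(roDom)519. The remaining 4 arrays held w1118 eye disc fragments dissected from behind the furrow. These fragments hold neither antennal disc nor eye disc from ahead of the furrow, and are used here as the only normal test RNA that had passed through the same amplification as the mutants.

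The reference counts as 1 control sample, so a test of the mutant mean against 0 leaves out its own spread. Test RNA had 2 rounds of T7 amplification and the reference had 1 round, so genotype and the second round cannot be told apart in a ratio against the reference. In the difference of mutants minus posterior fragments the reference and the amplification cancel. It sets whole eye-antennal discs against tissue from behind the furrow, so genotype and dissected region cannot be told apart in it. The 4 posterior arrays shared a scanning day with only 1 mutant array, so scanning day and that difference cannot be told apart either. The RNA came from whole tissue pieces, in which fewer cells of a type and less RNA per cell cannot be told apart. From 48.2% of probes (posterior fragments, replicate 1) to 94% (Su(roDom)519, replicate 2) were detected in at least 1 channel. Array titles begin with 5th for roDom homozygote replicates 1 and 2 and for hh1 replicate 1. They begin with 6th for posterior replicate 1 and with 7th for the other 23 arrays. This mark and the group cannot be fully told apart. The number of arrays limits the precision. The labels of 2 E(roDom)2033 homozygote arrays conflict on zygosity, and for replicate 2 of the roDom homozygotes the file header and the labels give opposite dyes. Both were also read the other way.

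In a third-instar eye disc the furrow sweeps from posterior to anterior. Ahead of it cells divide and express retinal determination genes, and at the furrow the proneural factor Atonal selects R8 cells, which then recruit the other photoreceptors through EGF receptor signalling. Hedgehog made by the new photoreceptors drives the furrow forward, and Notch signalling spaces the R8 cells.

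Of 16490 probes tested, 5508 passed a Benjamini-Hochberg adjusted p of 0.05 in limma for the mutant mean, which is 33.4% of them, and a probe or gene that passed is said to be called. Most of these changes were small. The median size was 0.23 on the log2 scale, with quartiles of 0.15 and 0.37. With each gene represented by its brightest probe, 2123 of 11509 genes were higher (18.4%) and 2105 were lower (18.3%). Probes that passed and had the same sign in all 8 group means numbered 1878, or 11.4%. By gene, 622 of the 2123 higher and 832 of the 2105 lower had one sign in all 8 groups. A call for the mean therefore need not be shared by all groups. Those that passed and changed at least 2-fold were 0.631% of probes, of which 27 were higher and 77 lower. The groups taken alone gave fewer calls. These were 13.7% of probes in E(roDom)2033 homozygotes, 13.5% in roX63, 10.7% in ato1, 5.94% in hh1, 5.48% in roDom heterozygotes, 5.2% in E(roDom)2033 heterozygotes, 4.7% in Su(roDom)519 and 3.71% in roDom homozygotes. Among the 5508 probes, 1582 were called in the direction of the mean in no group on its own, 1842 in 1 group and 11 in all 8 groups. A test for differences among the 8 groups passed for 1197 genes, or 10.4%. The count for the mutant mean fell to 3120 probes with scanning day as a random block, to 1809 with scanning day as a fixed block and to 2675 with the 8 group means as the units of the test.

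The targeted genes were examined first. hh encodes the secreted signal made by differentiating photoreceptors. Its log2 ratio ran from -1.63 to -0.32 over the 23 mutant arrays, with a median of -0.85, against 0.15, 0.99, 1.08 and 0.61 in the 4 posterior arrays. Every mutant array was below 0 and every posterior array above it. The mutant mean was -0.85 ± 0.07 (adjusted p = 1.2e-08), or 1.8-fold lower than the reference, and -1.54 ± 0.18 relative to posterior fragments (adjusted p = 8.6e-06). It was called in 7 of the 8 groups, hh1 and 6 groups with other mutations, and missed the threshold in E(roDom)2033 heterozygotes (adjusted p = 0.15). ro encodes a homeodomain protein that acts in photoreceptors R2 and R5. Its mutant mean was 0.03 ± 0.05 (adjusted p = 0.68), and only roDom heterozygotes were called, at 1.04 (adjusted p = 0.0015). The other 7 group means of ro lay between -0.39 and 0.13. ato, the proneural gene of R8, had a mutant mean of -0.17 ± 0.04 (adjusted p = 0.0014), with arrays from -0.87 to 0.50. Its call was lost with scanning day as a fixed block (-0.12, adjusted p = 0.42), with group means as units (adjusted p = 0.19) and with roDom homozygote replicate 2 turned by its header (-0.10, adjusted p = 0.23). w, which is mutated in the reference strain, averaged 0.10 ± 0.04 (adjusted p = 0.072). For w only ato1 was called, at 0.60 (adjusted p = 0.0012).

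Genes with one sign in all 8 groups were ranked next, and the 15 highest and 15 lowest with a symbol were read. Agreement in sign between groups is therefore fixed by the choice. The choice also favours agreement within scanning days and with single arrays left out, which use the same arrays. The 15 highest held genes of larval fat body, muscle, mitochondria and the eye field. The 15 lowest held neuronal, Notch, EGF receptor and salivary glue genes, and bnb as the only gene of the glial list. Each of the 30 kept its direction when any single array was left out, and none lost its call. Within the 4 scanning days that held at least 2 mutant groups, 28 to 30 of the 30 kept their direction, the exceptions being Lsp2, toy and Mp20. With scanning day as a fixed block 11 lost their call, with the 4 homozygous stop-furrow groups alone 5 did, and with group means as units IM33 and ng3 did. Of the 30, 10 differed among the groups, beside 10.4% of all genes. The heat map of these genes by group shows the size of each change.

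**Figure D1:**
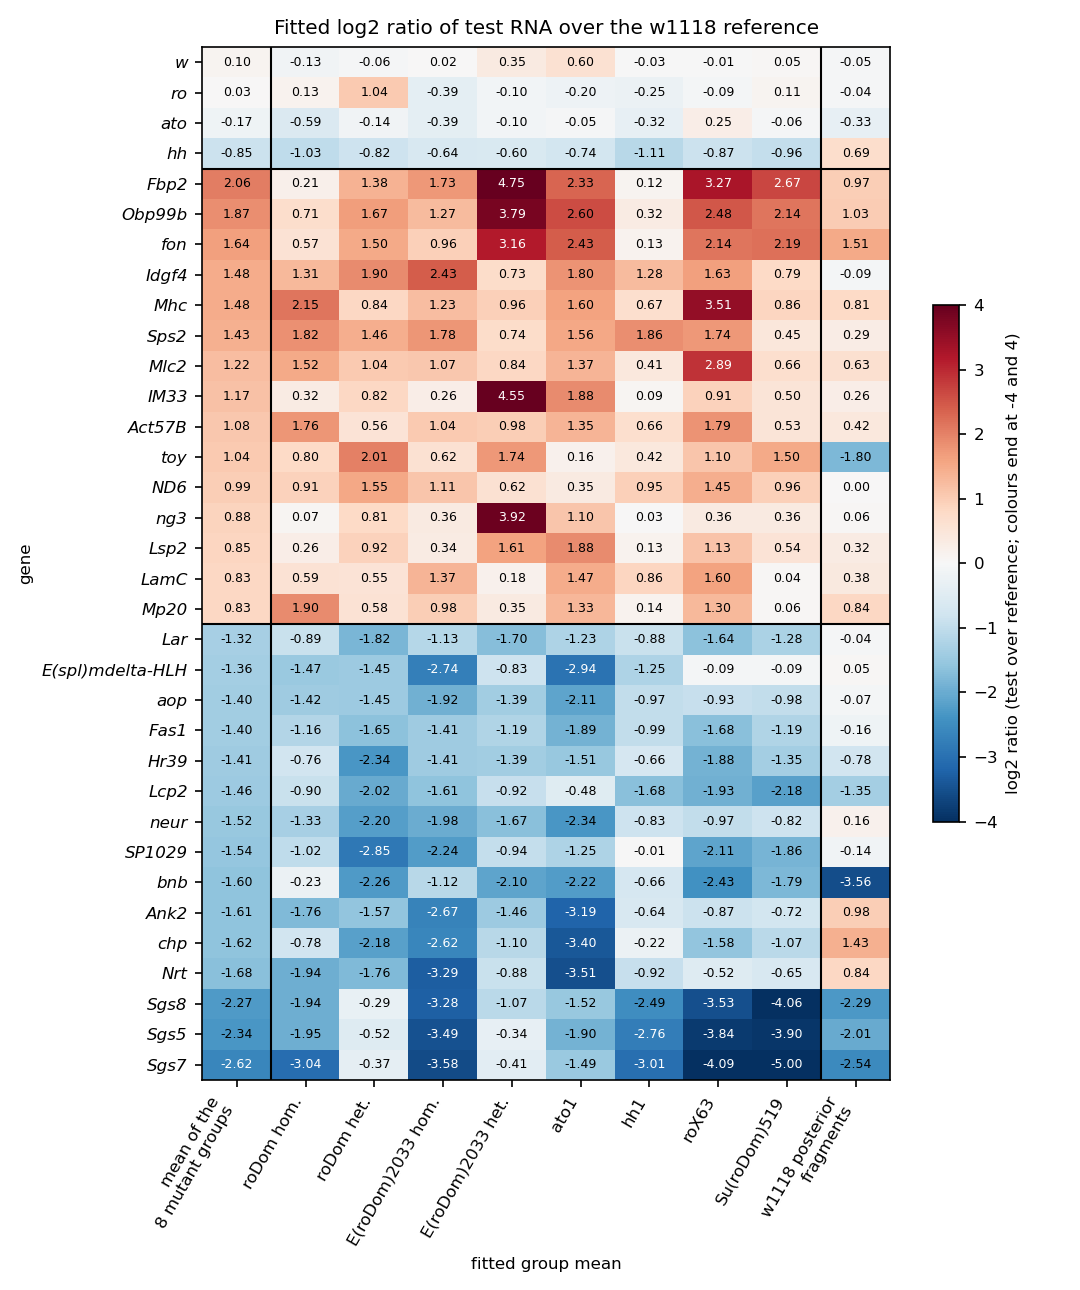
Fitted log2 ratio of test RNA over the w1118 reference for w, ro, ato and hh (top block), the 15 highest (middle block) and the 15 lowest genes (bottom block) with one sign in all 8 mutant groups. Columns are the mutant mean, the 8 mutant groups and the posterior fragments, and each cell prints its value. hh is below 0 in every mutant group and at 0.69 in posterior fragments.

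Among photoreceptor and neuronal genes, those that passed were lower in the mutants. Of 29 genes measured, 14 were lower (48.3%) and 15 did not pass in limma. None was higher, also at an unadjusted p under 0.05, against 18.3% lower among all genes. Their median was -0.10 in the mutant mean, against 0.01 over all genes, and 0.12 in posterior fragments. Of the 14 lower genes, 7 had one sign in all 8 groups. Nrt encodes the neuronal adhesion protein Neurotactin. It ranged from -3.76 to -0.22 over the mutant arrays, with a median of -1.36, against -0.12, 1.30, 0.99 and 1.21 in posterior arrays. All 23 mutant arrays were below 0, and 3 of the 4 posterior arrays were above 0. The mean was -1.68 ± 0.09 (adjusted p = 2.6e-11) and the difference from posterior fragments -2.53 ± 0.23 (adjusted p = 3e-07). Its 3 other probes were between -0.23 and -0.14, so the size rests on the brightest probe. chp encodes chaoptin, a photoreceptor surface protein. chp ran from -3.59 to 0.36 with a median of -1.57 in the mutant arrays, against 2.21, 1.76, 0.37 and 1.68 in posterior arrays. Only an hh1 array exceeded 0 among the mutants, and the posterior arrays were all above 0. The mean was -1.62 ± 0.10 (adjusted p = 2.5e-10), with -3.40 in ato1 and -0.22 in hh1. Ank2, an ankyrin of neurons, averaged -1.61 ± 0.09 on its brightest probe, and its 3 other probes lay between -0.12 and 0.10. The receptor tyrosine kinase sevenless, sev, which specifies R7, averaged -1.20 ± 0.07 (adjusted p = 2.5e-10) and was below 0 in all 23 arrays. Relative to posterior fragments sev was -1.82 ± 0.19 (adjusted p = 2e-06). Fas1, a cell adhesion protein of axons, was called in all 8 groups. Fas1 ranged from -3.11 to -0.34 over the mutant arrays, with a median of -1.46, against -0.15, 0.38, 0.25 and -0.37 in posterior arrays. The mutant arrays were all below 0 and the posterior arrays lay on both sides of it, with an overlap at the edge. The mean was -1.40 ± 0.09 (adjusted p = 2.5e-10), or 2.63-fold lower, and the difference from posterior fragments -1.24 ± 0.22 (adjusted p = 0.00091). Lar, a receptor phosphatase that guides axons, averaged -1.32 ± 0.10 (adjusted p = 5e-09) and was called in 7 groups. Nrt, chp, Ank2 and sev differed among the mutant groups, with adjusted p-values of 7.8e-06, 0.00011, 0.00016 and 0.0061.

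**Figure D2:**
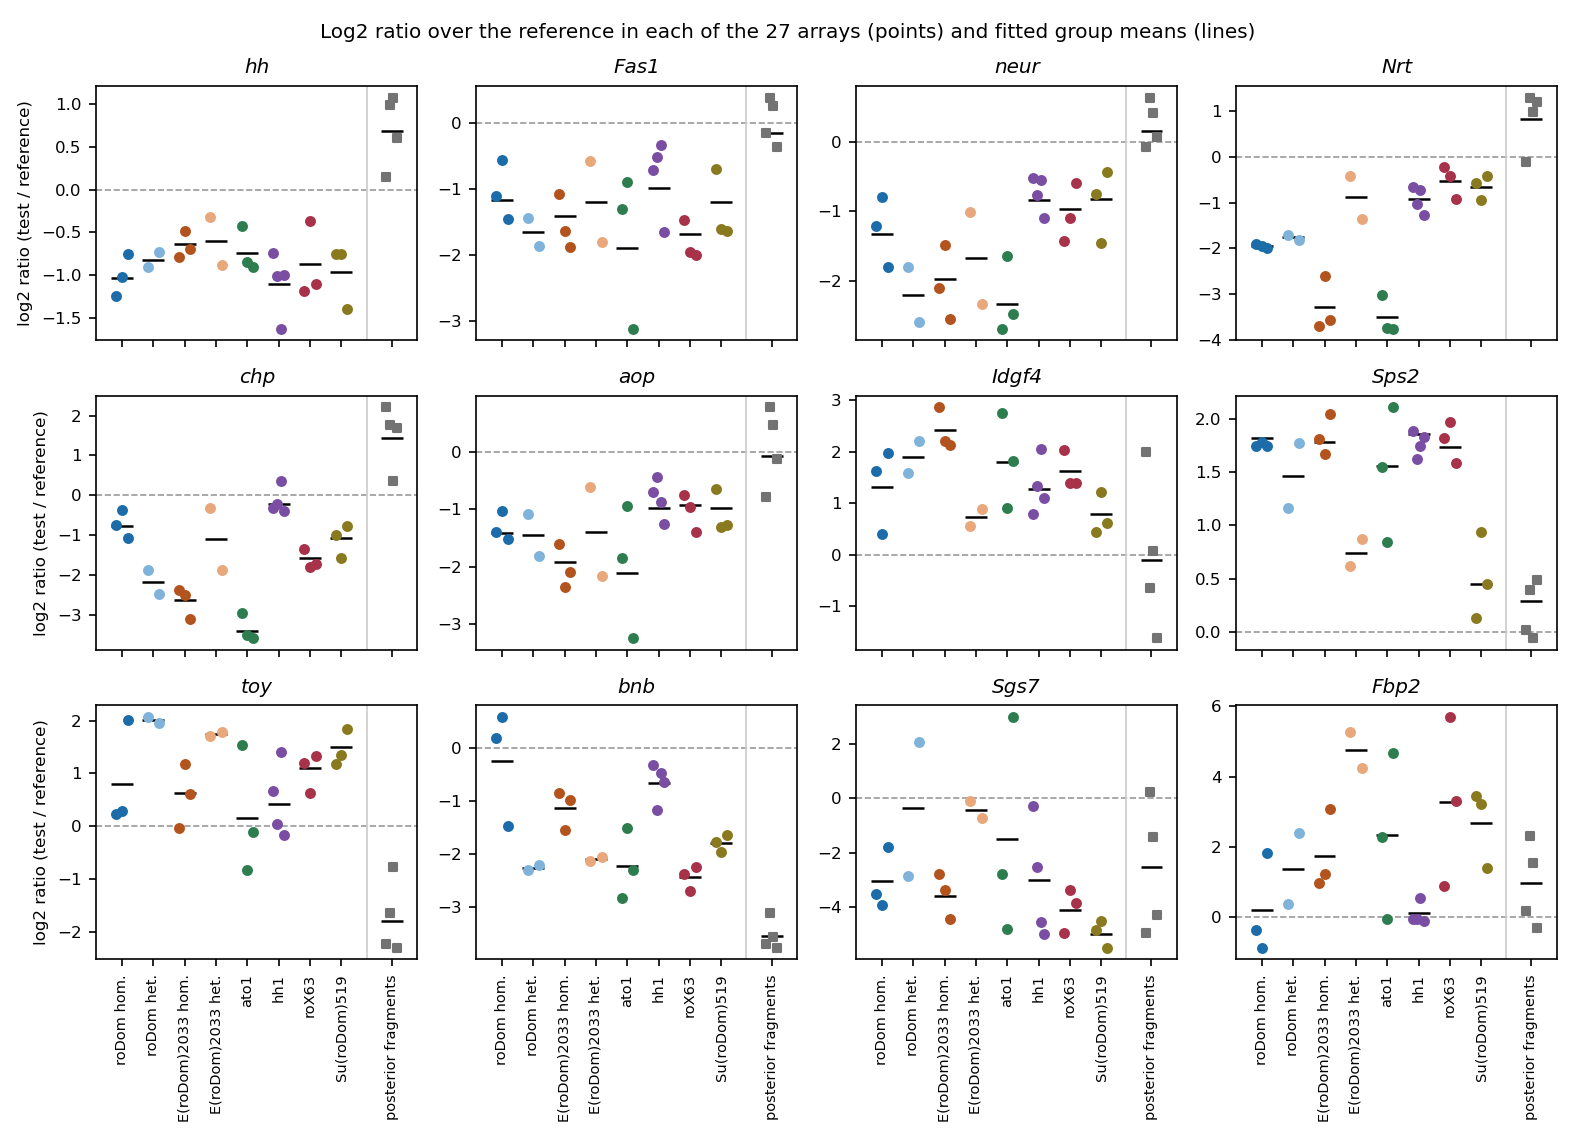
Log2 ratio of test over reference in every array for 12 genes (points), by mutant group and, at the right of each panel in grey squares, for posterior fragments. Lines are fitted, dye-adjusted group means and the dashed line marks 0. hh, Fas1, neur, Nrt and aop are below 0 in all 23 mutant arrays, Idgf4 and Sps2 are above 0 in all 23, and Sgs7 and Fbp2 vary widely within groups.

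Most EGF receptor pathway genes were lower in the mutants. The list held 19 measured genes, of which 13 were lower (68.4%, beside 18.3% of all genes) and 6 did not pass in limma. None was higher, and 1 was at an unadjusted p under 0.05. Their median was -0.26, against 0.01 over all genes, and it was below 0 in each of the 8 groups, from -0.56 in roDom heterozygotes to -0.16 in hh1. In posterior fragments the median was -0.04. Of the 13 lower genes, 9 had one sign in all 8 groups. The proteases that release the ligand, rho (rhomboid) and ru (roughoid), averaged -1.28 ± 0.09 (adjusted p = 8.7e-10) and -1.27 ± 0.09 (adjusted p = 2.6e-09). rho was below 0 in all 23 mutant arrays, from -3.05 to -0.25, against 0.91, 1.49, 1.29 and 0.74 in posterior arrays. ru ran from -3.31 to 0.50 in the mutants, with 4 arrays above 0, against 1.60, 1.52, 1.08 and 1.86 in posterior arrays. The difference from posterior fragments was -2.26 ± 0.23 for rho (adjusted p = 9.8e-07) and -2.79 ± 0.24 for ru (adjusted p = 1.7e-07). aop encodes Yan, a repressor downstream of the receptor. aop ranged from -3.25 to -0.44 over the mutant arrays, with a median of -1.27, against -0.79, 0.78, 0.47 and -0.12 in posterior arrays. All mutant arrays were below 0, and a single posterior array overlapped them. Its mean was -1.40 ± 0.10 (adjusted p = 2.7e-09) and it did not differ among groups (adjusted p = 0.18). The difference from posterior fragments was -1.33 ± 0.27 (adjusted p = 0.0026), and -1.26 (adjusted p = 0.058) with roDom homozygote replicate 2 turned by its header. aos encodes Argos, a secreted inhibitor induced by the pathway. It averaged -1.19 ± 0.06 (adjusted p = 9.7e-12) and its 2 other probes were at -1.41 and -1.40, both called in all 8 groups.

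Most Notch target genes also were lower. Among the 15 measured genes of the Enhancer of split and Bearded families, 10 were lower (66.7%, beside 18.3% of all genes), 1 was higher and 4 did not pass. The median was -0.40 in the mutant mean, from -0.66 in E(roDom)2033 homozygotes to 0.09 in roX63, and -0.14 in posterior fragments. Of the 10 lower genes, 5 had one sign in all 8 groups. Relative to posterior fragments 3 of the 15 were lower, beside 6.18% of all genes, and the median difference was -0.08. E(spl)mgamma-HLH, a repressor of proneural genes, averaged -1.43 ± 0.09 (adjusted p = 3.3e-10). Its groups were far apart, from -4.42 in ato1 to 1.01 in roX63 (adjusted p = 3.9e-09 among groups). Group means as units gave no call for it (adjusted p = 0.14). E(spl)mdelta-HLH averaged -1.36 ± 0.07 (adjusted p = 2.4e-11), with both roX63 and Su(roDom)519 at -0.09. The Bearded family members E(spl)m4-BFM and Tom averaged -1.14 ± 0.17 (adjusted p = 1.5e-05) and -0.80 ± 0.06 (adjusted p = 8.6e-09). The groups of E(spl)m4-BFM ran from -2.80 in E(roDom)2033 homozygotes to 0.56 in roX63. In posterior fragments it was at -1.26 ± 0.40, with a difference of 0.11 ± 0.43 (adjusted p = 0.94). Tom was below 0 in all 23 mutant arrays, and posterior fragments were at -0.88 ± 0.16. neur encodes a ubiquitin ligase that activates Notch ligands in R8. neur ran from -2.69 to -0.43 over the mutant arrays, with a median of -1.42, against -0.07, 0.64, 0.42 and 0.07 in posterior arrays. The arrays of the mutants and of the fragments did not overlap. Its mean was -1.52 ± 0.09 (adjusted p = 1.2e-10), its other probe gave -1.58, and the difference from posterior fragments was -1.68 ± 0.23 (adjusted p = 4.4e-05).

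Genes of the Hedgehog pathway, the furrow and the other signals showed smaller shifts. Of 16 Hedgehog pathway genes, 7 were lower (43.8%, beside 18.3% of all genes), 2 were higher and 7 did not pass, with a median of -0.08. en (engrailed), a homeodomain factor that keeps hh active in the wing disc, averaged -1.01 ± 0.12 (adjusted p = 1.1e-06) on its brightest probe and -0.06 on the other. ttv, needed for spread of the signal, averaged -0.70 ± 0.07 (adjusted p = 2.2e-07), and rasp, which attaches palmitate to Hedgehog, averaged 0.41 ± 0.10 (adjusted p = 0.002). The ttv call was lost with scanning day as a fixed block (adjusted p = 0.059). Of 15 furrow and proneural genes 6 were lower (40%) and 2 higher. stg, the phosphatase that starts mitosis, averaged -0.86 ± 0.08 (adjusted p = 6.8e-08), and dap, an inhibitor of the cell cycle, -0.62 ± 0.09 (adjusted p = 1.1e-05). Both differed among groups, and for dap group means as units gave an adjusted p of 0.058. Of 19 Dpp and Wingless pathway genes 8 were lower (42.1%) and 2 higher, with a median of -0.10. The type I receptor sax averaged -0.66 ± 0.06 (adjusted p = 5.5e-08) and the beta-catenin arm -0.45 ± 0.08 (adjusted p = 1e-04). The call for arm was lost with scanning day as a fixed block (-0.20, adjusted p = 0.44), and its other probes lay between -0.44 and 0.01. Of 9 JAK/STAT genes 3 were lower (33.3%) and none higher in limma, with 2 higher at an unadjusted p under 0.05. The lower ones were the kinase hop at -0.41 ± 0.06 (adjusted p = 1.5e-05), the transcription factor Stat92E at -0.30 ± 0.07 (adjusted p = 0.0017) and its target Socs36E at -0.16 ± 0.03 (adjusted p = 0.00065). All 3 calls were lost with scanning day as a fixed block, with adjusted p-values of 0.062, 0.46 and 0.22. Stat92E also missed the threshold with scanning day as a random block (adjusted p = 0.055), with group means as units (0.066), without the heterozygous groups (0.11) and with the stop-furrow homozygotes alone (0.051), and Socs36E with group means as units (0.062).

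Retinal determination and head genes moved in both directions. Of 20 retinal determination and anterior eye genes, 6 were lower (30%, beside 18.3% of all genes), 3 were higher (15%, beside 18.4%) and 11 did not pass. toy, a Pax6 factor at the top of the eye program, ran from -0.82 to 2.07 over the mutant arrays, with a median of 1.18, against -2.23, -1.64, -0.77 and -2.30 in posterior arrays. The 4 posterior arrays were all below 0, 19 of the 23 mutant arrays were above it, and 1 ato1 array lay within the posterior range. The mean was 1.04 ± 0.14 (adjusted p = 6.4e-06) and the difference from posterior fragments 2.84 ± 0.37 (adjusted p = 2.2e-05). With the 4 homozygous stop-furrow groups alone the mean was 0.50 (adjusted p = 0.06). eya, a phosphatase and cofactor needed for furrow start, was below 0 in all 23 arrays, at -1.26 ± 0.10 (adjusted p = 4.9e-09). Its groups ran from -2.58 in E(roDom)2033 homozygotes to -0.19 in roX63 (adjusted p = 0.0056 among groups). danr (distal antenna-related) averaged -0.71 ± 0.10 (adjusted p = 8.2e-06) and mirr, a dorsal eye selector, -0.64 ± 0.11 (adjusted p = 6e-05). Of 18 antennal and head genes 5 were lower (27.8%) and none higher in limma, with 1 higher at an unadjusted p under 0.05. The lower ones included danr, which stands in both lists. The homeotic genes lab and Dfd averaged -0.69 ± 0.10 (adjusted p = 8.3e-06) and -0.68 ± 0.09 (adjusted p = 3.3e-06), and were at -1.88 ± 0.23 and -2.31 ± 0.21 in posterior fragments. The antennal selector ss averaged -0.54 ± 0.07 (adjusted p = 3.3e-06) and the homeobox gene B-H2 -0.35 ± 0.06 (adjusted p = 5.1e-05). The calls for Dfd and ss were lost with scanning day as a fixed block (adjusted p = 0.063 and 0.13), and with the stop-furrow homozygotes alone lab was at -0.24 (adjusted p = 0.19) and Dfd at -0.19 (adjusted p = 0.27).

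Genes of the basement membrane, glia and trachea were lower in part. Of 17 basement membrane and integrin genes, 8 were lower (47.1%, beside 18.3% of all genes), 1 was higher and 8 did not pass. Their median was -0.14 in the mutants, below 0 in all 8 groups, and 0.16 in posterior fragments. The alpha integrin if averaged -1.20 ± 0.10 (adjusted p = 2.6e-08), the metalloproteinase Mmp2 -1.14 ± 0.14 (adjusted p = 2e-06) and the laminin chain LanB2 -0.95 ± 0.09 (adjusted p = 5.5e-08). Relative to posterior fragments, if was -1.78 ± 0.27 (adjusted p = 0.00015) and Mmp2 -1.79 ± 0.36 (adjusted p = 0.0027). Of 13 glial genes 6 were lower (46.2%) and none higher in limma, with none higher at an unadjusted p under 0.05 either. The summed signal of the list had a median of 0.131% of the test channel in mutant arrays, 0.222% in posterior arrays and 0.226% in the reference channel of the mutant arrays. bnb, expressed in glia, ran from -2.83 to 0.60 over the mutant arrays, with a median of -1.64, against -3.71, -3.11, -3.57 and -3.78 in posterior arrays. All posterior arrays were lower than every mutant array. The mean was -1.60 ± 0.10 (adjusted p = 3.2e-10), and the mutants were above posterior fragments by 1.96 ± 0.26 (adjusted p = 3.5e-05). In this bnb ran opposite to its list, of which 5 genes were lower than in posterior fragments and only bnb was higher. In posterior fragments bnb was at -3.56 ± 0.24, whereas the list median was 0.11. The glial regulator loco averaged -0.78 ± 0.07 (adjusted p = 3.7e-08), the sodium pump subunit nrv2 -0.72 ± 0.07 (adjusted p = 1e-07) and the septate junction protein Nrx-IV -0.59 ± 0.08 (adjusted p = 9.5e-06). Other probes of loco reached 0.02 and the other probe of nrv2 was at 0.05. Of 12 hemocyte genes only Ppn, an extracellular matrix protein, passed, at -0.51 ± 0.06 (adjusted p = 2.7e-06). Of 7 tracheal genes 3 were lower. They were obst-A at -0.78 ± 0.13, verm at -0.67 ± 0.08 and serp at -0.50 ± 0.06, all proteins that bind or modify chitin. The 2 other probes of serp were at -0.20 and -0.08, and its group mean in hh1 was 0.26. The calls for Nrx-IV, Ppn, verm and serp were lost with scanning day as a fixed block (adjusted p = 0.064, 0.097, 0.058 and 0.25).

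Ecdysone response and salivary glue genes that passed were more often lower than higher, with a wide spread. Of 20 ecdysone response genes, 9 were lower (45%, beside 18.3% of all genes), 2 were higher and 9 did not pass. The median was -0.09 in the mutants and -0.10 in posterior fragments. ImpE2, an ecdysone-inducible secreted protein of discs, averaged -1.71 ± 0.25 (adjusted p = 1.4e-05), with arrays from -4.39 to 1.64. With scanning day as a fixed block its adjusted p was 0.062. The nuclear receptor Hr39 averaged -1.41 ± 0.13 (adjusted p = 6.4e-08), with its 2 other probes at -1.42 and -1.32. The transcription factor br averaged -0.98 ± 0.09 (adjusted p = 5.1e-08) on its brightest probe, and its 6 other probes lay between -0.34 and 0.03. In posterior fragments br was at -0.99 ± 0.22, and the difference was 0.01 ± 0.23 (adjusted p = 0.99). Of 12 glue genes, which encode the salivary secretion that fixes the pupa, 7 were lower (58.3%), 3 were higher (25%) and 2 did not pass. Sgs7 ran from -5.50 to 3.0 over the mutant arrays, with a median of -3.38, against -4.96, 0.25, -1.43 and -4.30 in posterior arrays. The posterior arrays fell inside the mutant range. The mean was -2.62 ± 0.43 (adjusted p = 6.1e-05), and the difference from posterior fragments was -0.08 ± 1.11 (adjusted p = 0.99). Sgs5 and Sgs8 averaged -2.34 ± 0.33 and -2.27 ± 0.36 (adjusted p = 1.2e-05 and 4.1e-05), and Eig71Ee averaged -1.14 ± 0.28 (adjusted p = 0.0031). ng3 was among the 3 higher genes, at 0.88 ± 0.10 (adjusted p = 6.2e-07), with 3.92 in E(roDom)2033 heterozygotes and an adjusted p of 0.17 with group means as units. The summed glue signal had a median of 0.0261% of the test channel in mutant arrays (0.0109 to 0.464%), 0.0452% in posterior arrays (0.0042 to 0.107%) and 0.151% in the reference channel of the mutant arrays (0.0146 to 0.209%). All 12 glue genes were detected on some array in each of these channels. The part of salivary tissue in these values was not tested.

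Cuticle and chitin genes were mostly higher. Of 20 measured, 12 were higher (60%, beside 18.4% of all genes), 4 were lower and 4 did not pass. Only 3 of the 12 had one sign in all 8 groups. Idgf4, a chitinase-like growth factor of imaginal discs, ran from 0.41 to 2.87 over the mutant arrays, with a median of 1.39, against 2.0, -0.65, 0.08 and -1.62 in posterior arrays. Every mutant array was above 0, and 1 posterior array overlapped the upper part of the mutant range. The mean was 1.48 ± 0.16 (adjusted p = 5.2e-07), or 2.8-fold higher. The difference from posterior fragments was 1.57 ± 0.43 (adjusted p = 0.022), and it did not pass without posterior replicate 2 (1.36), replicate 3 (1.60) or replicate 4 (0.95). Vajk2 and Vajk3, placed in the cuticle list, averaged 2.28 ± 0.15 (adjusted p = 3.4e-10) and 1.63 ± 0.07 (adjusted p = 2.3e-12). The groups of Vajk3 ran from -0.17 in Su(roDom)519 to 4.02 in ato1 (adjusted p = 2.3e-09 among groups), and group means as units gave an adjusted p of 0.059. The groups of Vajk2 ran from -0.15 in Su(roDom)519 and -0.06 in E(roDom)2033 heterozygotes to 4.20 in E(roDom)2033 homozygotes, and its second probe was at 0.63. pot, which links cuticle to epidermis, averaged -0.80 ± 0.11 (adjusted p = 8.4e-06), and Lcp2, a larval cuticle protein, -1.46 ± 0.23 (adjusted p = 3.8e-05). The call for pot was lost with scanning day as a fixed block (-0.25, adjusted p = 0.47).

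Most fat body genes and some muscle genes were higher in the mutants, with a wide spread between arrays. Of 10 fat body and larval serum genes, 6 were higher (60%, beside 18.4% of all genes), 1 was lower and 3 did not pass. The list median was above 0 in all 8 groups, but only 2 of the 6 higher genes had one sign in all 8. Fbp2, a fat body enzyme, ran from -0.88 to 5.70 over the mutant arrays, with a median of 1.40, against 0.16, 2.32, 1.55 and -0.30 in posterior arrays. The posterior arrays fell inside the mutant range, and 17 of the 23 mutant arrays were above 0. The mean was 2.06 ± 0.30 (adjusted p = 1.4e-05), with 4.75 in E(roDom)2033 heterozygotes and 0.12 in hh1. The serum storage proteins Lsp1gamma, Lsp2 and Lsp1beta averaged 1.27 ± 0.30, 0.85 ± 0.23 and 0.51 ± 0.10 (adjusted p = 0.002, 0.0059 and 0.00038). Outside the list, the clotting protein fon and the odorant-binding protein Obp99b averaged 1.64 ± 0.31 and 1.87 ± 0.33 (adjusted p = 0.00029 and 0.00014). None of these 6 genes passed with scanning day as a fixed block (adjusted p of 0.15 to 0.85), nor with the stop-furrow homozygotes alone (0.051 to 0.13), and Lsp2 also missed the threshold with scanning day as a random block (0.055). The summed signal of the fat body list had a median of 0.0286% of the test channel in mutant arrays (0.00849 to 0.212%), 0.0181% in posterior arrays (0.00666 to 0.0419%) and 0.0146% in the reference channel (0.00855 to 0.0231%). Of 22 muscle genes 8 were higher (36.4%), 2 were lower and 12 did not pass, with a median of 0.04 in the mutants and 0.10 in posterior fragments. The myosin heavy chain Mhc ran from -0.41 to 4.75, with a median of 1.17, against -0.18, 0.94, 2.01 and 0.09 in posterior arrays. It averaged 1.48 ± 0.22 (adjusted p = 2.3e-05), and roX63 stood highest at 3.51. Mlc2, Act57B, Mp20 and Prm averaged 1.22 ± 0.20, 1.08 ± 0.17, 0.83 ± 0.20 and 0.75 ± 0.16, and the other probe of Prm was at 0.08. All 5 muscle genes lost their call with scanning day as a fixed block, with adjusted p-values of 0.12, 0.23, 0.053, 0.76 and 0.26. The muscle list summed to a median of 0.143% in mutant test channels (0.0812 to 0.342%), 0.14% in posterior ones (0.135 to 0.176%) and 0.125% in the reference (0.0845 to 0.164%). The part of attached fat body and muscle in these values was not tested. Every gene of both lists was detected on some array in each channel.

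Few immune-induced genes passed. Of 25 measured, 4 were higher (16%) and 1 was lower (4%), beside 18.4% and 18.3% of all genes. The higher ones were BomS1 at 0.32 ± 0.08 (adjusted p = 0.0035), PGRP-SD at 0.30 ± 0.07 (adjusted p = 0.001), BomS2 at 0.29 ± 0.07 (adjusted p = 0.0017) and BomBc1 at 0.15 ± 0.03 (adjusted p = 0.00043). The serpin Spn43Aa was at -0.57 ± 0.13 (adjusted p = 0.0015). All 5 lost their call with scanning day as a fixed block, with adjusted p-values of 0.27, 0.76, 0.65, 0.10 and 0.60. BomBc1, PGRP-SD and Spn43Aa also missed it with the stop-furrow homozygotes alone (0.12, 0.26 and 0.50), BomS1 and Spn43Aa with group means as units (0.14 and 0.29), BomS1 without E(roDom)2033 homozygotes (0.12) and Spn43Aa without roX63 (0.099). BomS1 was detected in the test channel on 10 of the 23 mutant arrays. IM33, an immune-induced peptide outside the list, averaged 1.17 ± 0.13 (adjusted p = 5.9e-07), with 4.55 in E(roDom)2033 heterozygotes and 0.09 in hh1.

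Genes of ribosomes, the respiratory chain and DNA replication that passed were mostly higher in the mutants. Of 84 cytoplasmic ribosomal protein genes 52 were higher (61.9%, beside 18.4% of all genes), 1 was lower and 31 did not pass, with a median of 0.22. Their median was above 0 in 7 groups, up to 0.56 in roDom heterozygotes, and at -0.10 in E(roDom)2033 homozygotes. RpS9 averaged 0.64 ± 0.06 (adjusted p = 2.4e-08) and RpS10b 0.63 ± 0.08 (adjusted p = 1.5e-06). Of 62 mitochondrial ribosomal protein genes 41 were higher (66.1%) and 2 lower, with a median of 0.21 in the mutants, above 0 in all 8 groups, and -0.03 in posterior fragments. mRpL22 averaged 0.52 ± 0.09 (adjusted p = 0.00018), but 0.03 (adjusted p = 0.91) in the stop-furrow homozygotes alone and at an adjusted p of 0.079 with group means as units. Of 79 respiratory chain genes 36 were higher (45.6%), 3 were lower and 40 did not pass, and the complex I subunit ND-B14.5A averaged 0.70 ± 0.08 (adjusted p = 6.6e-07). ND6, a complex I subunit encoded in the mitochondrial genome, averaged 0.99 ± 0.14 (adjusted p = 1e-05), with its other probe at 1.08. Calls for ND-B14.5A and ND6 were lost with scanning day as a fixed block (adjusted p = 0.051 and 0.19). Of 32 proteasome genes 8 were higher (25%) and 4 lower (12.5%), near the 18.4% and 18.3% of all genes, and the core subunit Prosbeta1 averaged 0.66 ± 0.07 (adjusted p = 1.9e-07). Of 27 DNA replication genes 15 were higher (55.6%) and 1 lower, with a median of 0.25 in the mutants and -0.09 in posterior fragments. Only 2 of these 15 had one sign in all 8 groups. The same held for 15 of the 52 higher cytoplasmic ribosomal, 18 of the 41 mitochondrial ribosomal and 17 of the 36 respiratory chain genes. The group medians of the DNA replication list ran from -0.06 in roDom homozygotes to 0.58 in E(roDom)2033 homozygotes. The origin recognition subunit Orc2 averaged 0.48 ± 0.06 (adjusted p = 3.1e-06), the helicase subunit Mcm5 0.47 ± 0.10 (adjusted p = 0.00089), the ribonucleotide reductase subunit RnrS 0.39 ± 0.06 (adjusted p = 5.1e-05) and the sliding clamp PCNA 0.39 ± 0.07 (adjusted p = 0.00013). The 2 other probes of Orc2 were at 0.08 and 0.42. Calls for Orc2, Mcm5 and PCNA were lost with scanning day as a fixed block (adjusted p = 0.056, 0.13 and 0.50). The call was also lost for Mcm5 with the stop-furrow homozygotes alone (0.079), and for RnrS with group means as units (adjusted p = 0.089). Of 24 mitosis genes 9 were lower (37.5%) and 3 higher (12.5%). The securin pim averaged -0.42 ± 0.04 (adjusted p = 9.9e-08) and was below 0 in all 23 arrays, while posterior fragments were at -0.50 ± 0.10. The 2 other probes of pim ran from -0.48 to 0.11.

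**Figure D3:**
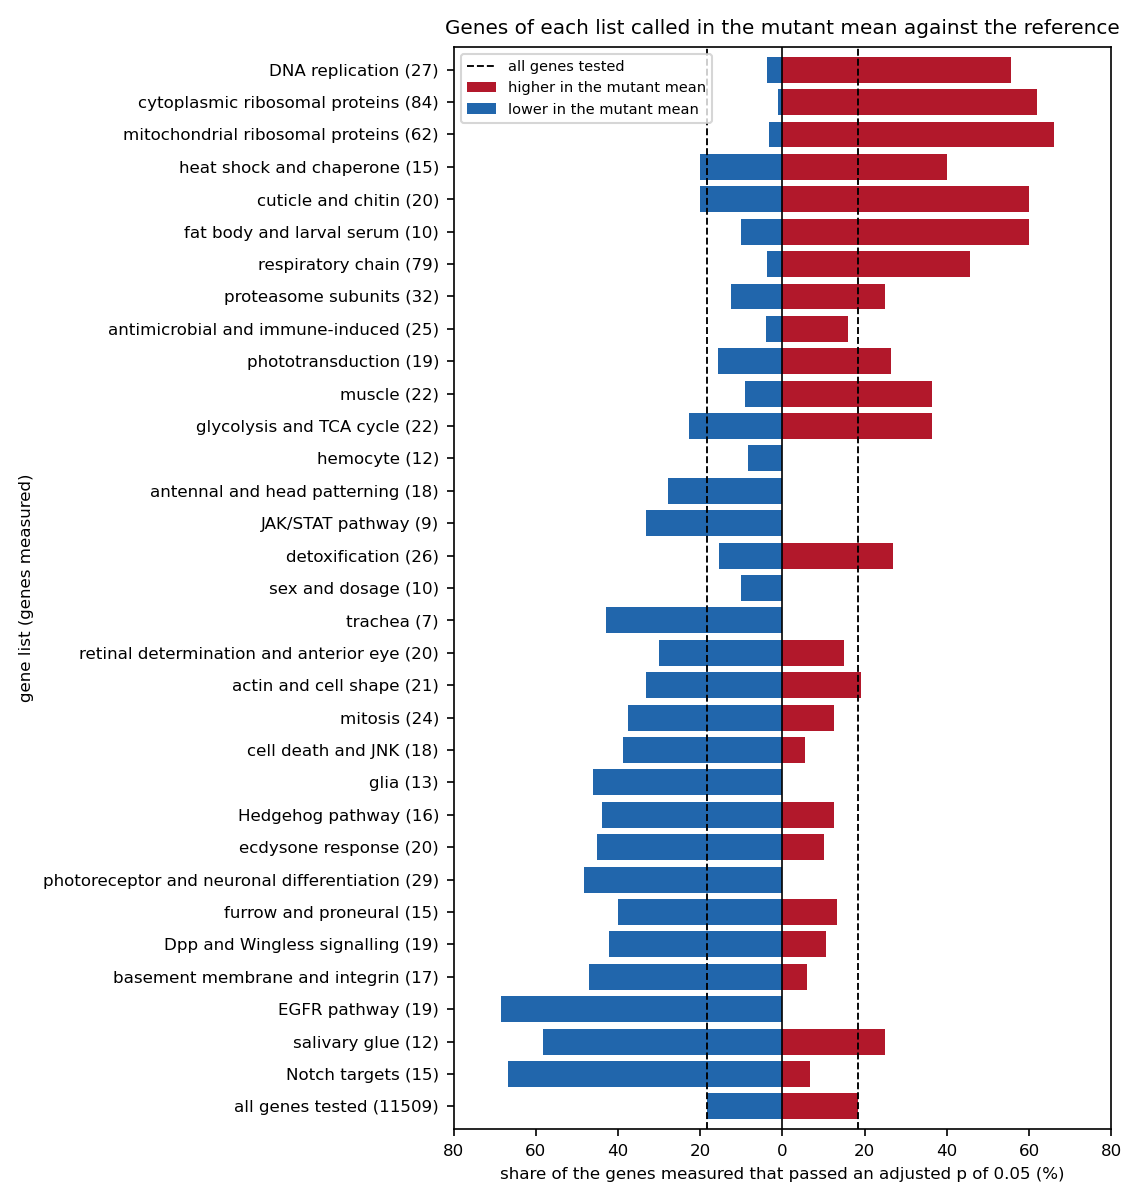
Share of the measured genes of each of 32 lists that passed an adjusted p of 0.05 in the mutant mean, higher to the right and lower to the left, in order of the list median. Dashed lines mark all 11509 genes (18.4% higher and 18.3% lower). A called gene need not have one sign in all 8 groups. Ribosomal and DNA replication lists reach 55.6% to 66.1% higher, and the EGFR pathway and Notch targets 68.4% and 66.7% lower.

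Other lists moved less or in both directions, beside 18.4% of all genes higher and 18.3% lower. Of 18 cell death and JNK genes 7 were lower (38.9%) and 1 higher. The caspase Dronc averaged -0.69 ± 0.07 (adjusted p = 3e-07), the TNF ligand egr -0.67 ± 0.06 (adjusted p = 6e-08) and the JNK phosphatase puc -0.51 ± 0.06 (adjusted p = 4.2e-07). puc lost its call with scanning day as a fixed block (adjusted p = 0.17). Of 15 heat shock and chaperone genes 6 were higher (40%) and 3 lower (20%). None of these called genes had one sign in all 8 groups. The small heat shock protein Hsp67Bc averaged -0.90 ± 0.09 (adjusted p = 7.4e-08) and the chaperone Hsp83 0.69 ± 0.22 (adjusted p = 0.017). Hsp83 did not pass without roDom heterozygote replicate 2 (0.61) or without E(roDom)2033 heterozygote replicate 1 (0.64). It also missed the threshold with scanning day as a random block (adjusted p = 0.12), with group means as units (0.055), without the heterozygous groups (0.081), without E(roDom)2033 homozygotes (0.071) and with the stop-furrow homozygotes alone (0.056). Of 26 detoxification genes 7 were higher (26.9%) and 4 lower (15.4%), near the shares of all genes, with the glutathione transferases GstE6 at 0.67 ± 0.05 and GstD1 at 0.64 ± 0.10 and the cytochrome P450 Cyp4e2 at -0.69 ± 0.14. With scanning day as a fixed block GstD1 had an adjusted p of 0.23, and with group means as units GstE6 had 0.078. The groups of GstE6 ran from -0.01 in Su(roDom)519 to 2.27 in E(roDom)2033 homozygotes. Of 19 phototransduction genes 5 were higher (26.3%) and 3 lower (15.8%), also near those shares. Xport-A, a chaperone of rhodopsin, ran from -2.72 to 0.23 over the mutant arrays, with a median of -0.84, against 0.59, 0.87, 1.14 and 1.32 in posterior arrays. All posterior arrays were above every mutant array. It averaged -1.04 ± 0.05 (adjusted p = 1.6e-12), and the difference from posterior fragments was -2.05 ± 0.12 (adjusted p = 1.5e-09). The eye protein kinase C gene inaC averaged -0.42 ± 0.07 (adjusted p = 4.1e-05), with an adjusted p of 0.057 with group means as units. Of 21 actin and cell shape genes 7 were lower (33.3%) and 4 higher (19%). Arpc1, a subunit of the actin-nucleating Arp complex, averaged 1.22 ± 0.10 (adjusted p = 5.2e-09) and the profilin chic -0.83 ± 0.09 (adjusted p = 2.8e-07). The groups of Arpc1 ran from -0.25 in Su(roDom)519 and 0.51 in roX63 to 1.90 in roDom homozygotes (adjusted p = 0.0045 among groups). Ance, a secreted peptidase placed in that list, averaged 0.45 ± 0.12 (adjusted p = 0.0048) in the mutants and -4.69 ± 0.28 in posterior fragments. The mutant arrays of Ance ran from -1.32 to 2.17, against -4.88, -4.92, -4.85 and -4.56 in posterior arrays, without overlap. The call of Ance in the mutant mean was lost with scanning day as a random block (adjusted p = 0.062) or a fixed block (0.22) and with group means as units (0.16). Of 22 glycolysis and TCA cycle genes 8 were higher (36.4%) and 5 lower (22.7%), with phosphoglycerate kinase, Pgk, at 0.67 ± 0.09 (adjusted p = 3.1e-06). Of 10 genes of sex and dosage only mle, a subunit of the dosage compensation complex, passed, at -0.18 ± 0.04 (adjusted p = 0.00045), and its adjusted p was 0.40 with scanning day as a fixed block.

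**Figure D4:**
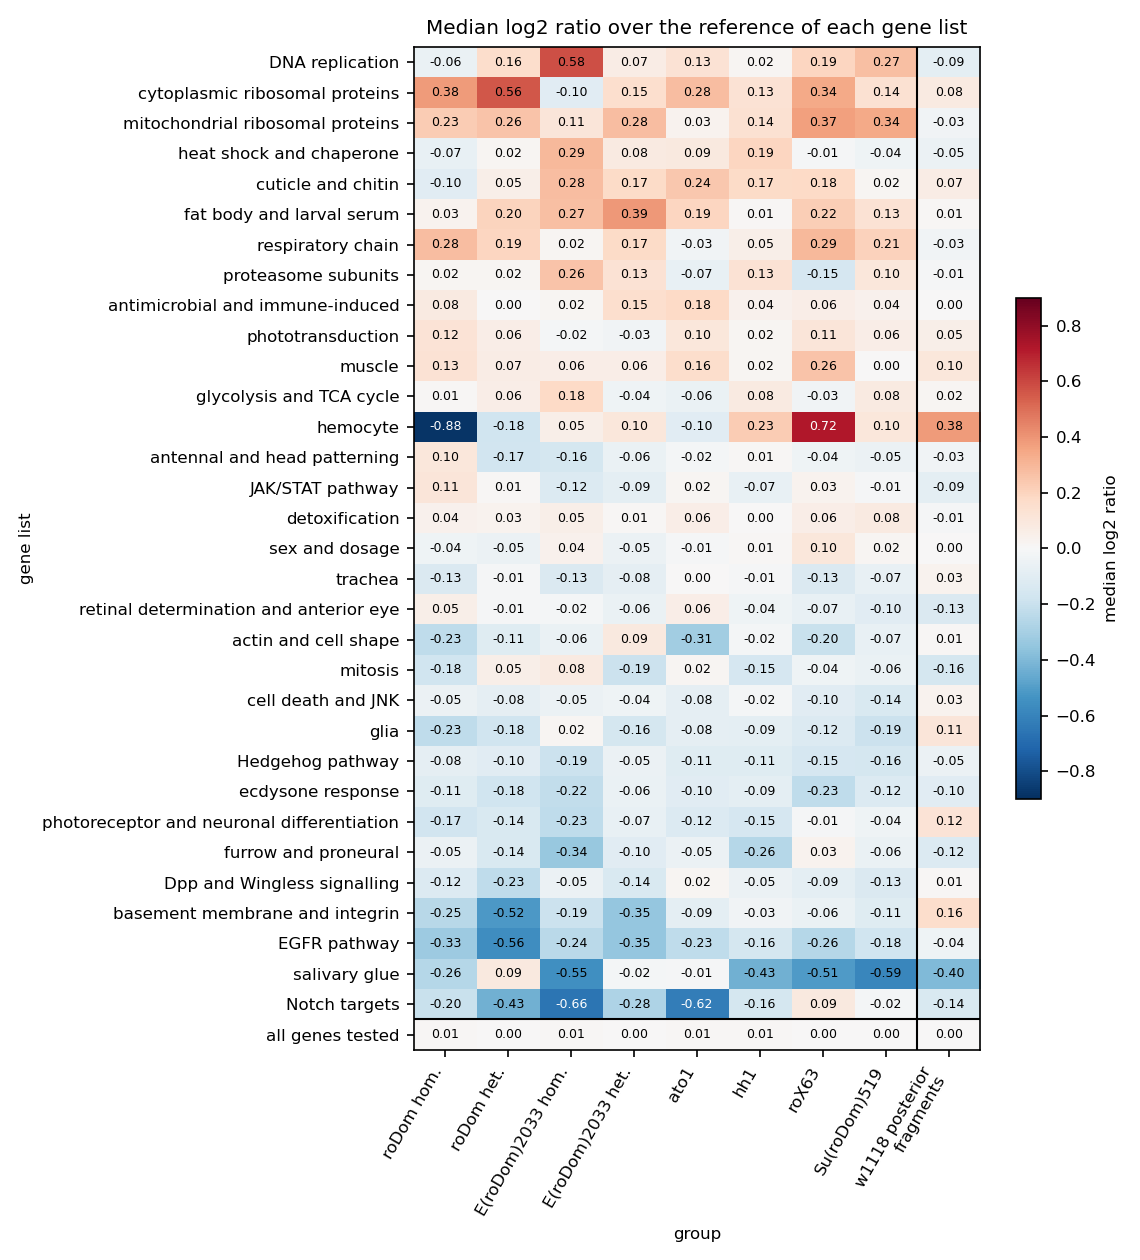
Median log2 ratio over the reference of each gene list, by mutant group and, in the last column, for posterior fragments. The EGFR pathway median is below 0 in all 8 groups, from -0.56 to -0.16, and the mitochondrial ribosomal protein median is above 0 in all 8, while the hemocyte median runs from -0.88 in roDom homozygotes to 0.72 in roX63. Replicates 1 and 2 of the roDom homozygotes have titles that begin with 5th, and all roX63 arrays have titles that begin with 7th.

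The most uniform changes were then listed. The genes of this paragraph were chosen after their values were seen. Probes with one sign in every measured mutant array numbered 161 of 16490, or 0.976%. By brightest probe they named 125 genes, of which 23 were higher and 102 lower. Sps2, a selenophosphate synthetase, ran from 0.13 to 2.11 over the mutant arrays, with a median of 1.75, against 0.02, 0.39, -0.06 and 0.49 in posterior arrays. The 2 lowest mutant arrays, both Su(roDom)519, overlapped with the posterior arrays. The mean was 1.43 ± 0.05 (adjusted p = 2.4e-13), but its other probe was at 0.01. Its groups ran from 0.45 in Su(roDom)519 to 1.86 in hh1 (adjusted p = 0.00029 among groups). The difference from posterior fragments, 1.13 ± 0.13 (adjusted p = 8.4e-06), became 1.03 (adjusted p = 0.14) with roDom homozygote replicate 2 turned by its header. SmE, a spliceosomal core protein, averaged 0.81 ± 0.06 (adjusted p = 5e-09), with its 3 other probes between 0.68 and 0.72, and was above 0 in all 23 arrays. Of the 11 probes called in all 8 groups, all were lower. They included Fas1, 2 probes of aos and 1 probe of Lis-1, a dynein regulator, whose brightest probe averaged -0.79 ± 0.05 and was called in 7 groups. The others were CG46339 at -1.27 ± 0.07, CG7806 at -0.91 ± 0.06, CG4666 at -0.90 ± 0.05, the mannosidase alpha-Man-Ia at -0.83 ± 0.05, l(3)76BDm at -0.75 ± 0.05, Spn, which binds protein phosphatase 1, at -0.73 ± 0.05, and Ced-12, an engulfment protein, at -0.64 ± 0.04. The second probe of alpha-Man-Ia was at 0.02, and in posterior fragments its brightest probe was at -0.72 ± 0.13, so that the difference was -0.11 ± 0.14 (adjusted p = 0.79). Ced-12 ran from -1.03 to -0.27 over the mutant arrays, with a median of -0.60, against 0.70, 0.80, 0.59 and 0.70 in posterior arrays. The arrays of the mutants and the fragments did not overlap. Outside these uniform genes, LamC, the A-type lamin, averaged 0.83 ± 0.10 (adjusted p = 8.6e-07), and SP1029 -1.54 ± 0.21 (adjusted p = 7.3e-06). LamC was above 0 in 21 of the 23 mutant arrays and SP1029 below 0 in 20 of the 23. Both missed the threshold with scanning day as a fixed block (adjusted p = 0.073 and 0.063).

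Relative to posterior fragments, fewer genes differed. Posterior fragments themselves were called against the reference for 780 probes, or 4.73%, with 365 genes higher (3.17%) and 266 lower (2.31%). This comparison shares its reference with the mutant mean. The mutant mean differed from posterior fragments in 1409 probes, or 8.54%, with 405 genes higher (3.52%) and 711 lower (6.18%). Leaving out posterior replicate 4 took this to 711 probes. Of the 88 genes called and changed at least 2-fold against the reference, 23 were higher and 65 lower. Of these, 9 of the 23 were also higher than posterior fragments and 48 of the 65 were lower. Of the 125 genes with one sign in every mutant array, 15 of the 23 higher ones and 78 of the 102 lower ones differed from posterior fragments the same way. Both sets were chosen by their mutant values, which also enter this difference, so agreement in direction is partly built in. Photoreceptor genes were lower than in posterior fragments in 12 of 29 cases, basement membrane genes in 6 of 17 and EGF receptor pathway genes in 6 of 19. Glial genes were lower in 5 of 13 and Notch target genes in 3 of 15. Mitochondrial ribosomal protein genes were higher in 11 of 62, cytoplasmic ones in 9 of 84, respiratory chain genes in 6 of 79 and DNA replication genes in 5 of 27. No fat body, glue, muscle or immune gene passed in limma in this comparison. At an unadjusted p under 0.05 there were 0 of 10, 1 of 12, 2 of 22 and 2 of 25 such genes, beside 2535 of all 11509. Standard errors were large for several of them, so a missed threshold does not show equal levels. The differences were 1.08 ± 0.77 for Fbp2, 1.09 ± 0.77 for Lsp1gamma, 0.67 ± 0.58 for Mhc and -0.08 ± 1.11 for Sgs7. Salivary glue genes had a median of -0.30 in the mutants and -0.40 in posterior fragments. toy, bnb, mirr, lab and Dfd were higher in mutants than in posterior fragments, by 2.84 ± 0.37, 1.96 ± 0.26, 1.68 ± 0.27, 1.18 ± 0.25 and 1.63 ± 0.23. For mirr, lab, Dfd and bnb the mutant mean was below the reference and the posterior mean lower still. Posterior fragments were also called below the reference for ato at -0.33 ± 0.09, Socs36E at -0.28 ± 0.08, obst-A at -1.09 ± 0.30 and Cyp4e2 at -1.29 ± 0.33, as for br, alpha-Man-Ia, pim and Tom above, and for none of these 8 genes did the difference of the mutants from the fragments pass. The lab difference missed the threshold without posterior replicate 4 (0.96, adjusted p = 0.063). With scanning day as a fixed block 568 probes differed, of which 224 were among the 1409, and that fit ties the 2 sets of arrays through 1 mutant array.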

How the data were processed

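The 27 arrays measured RNA as the ratio of test over reference. Per the file headers, the deposited scanner files give, for each of 17664 spots of an array, pixel intensities of both dyes and of the background around the spot. The deposited files also give the percent of saturated pixels per spot and a score that marks bad, absent or missing spots. The deposited value table holds log2 ratios made by the authors, with a constant shift per array whose origin is not given in the sources used here, and served only as an alternative. In it the columns of Su(roDom)519 replicate 3 and hh1 replicate 2 are exact negatives of each other over 10353 values. Turned to test over reference, the Su(roDom)519 column correlated across probes with its scanner file at r = 0.941 and the hh1 column at r = 0.137, so the hh1 column was left out there.

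Spots scored at or under -75 were dropped, background was subtracted with normexp (offset 50), and each array was normalised by global loess with control spots at weight 0 (limma 3.58.1, statmod 1.5.0, R 4.3.3). Log2 ratios were turned to test over reference by the labelled dye and spots of a probe were averaged. Probes were named through the RefSeq table of assembly release 6, which matched 15500 of 16490 tested probes: its coordinates were not used. A gene is its brightest probe. For replicate 2 of the roDom homozygotes the header and the labels give opposite dyes. Turned by its labels, this array correlated across probes with replicate 1 at r = 0.514 and with replicate 3 at r = 0.293.

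One limma model over the 27 arrays estimated the 9 group means together with a dye effect. Moderated two-sided tests of the mean of the 8 mutant groups, of its difference from posterior fragments and of each group against 0, and an F test among mutant groups, were adjusted by Benjamini-Hochberg over 16490 probes with at least 2 arrays per group. The scripts were tested on simulated data. A probe was detected where the median foreground exceeded the median background by 2 background SD. Array values are not dye-adjusted. The series description states at least 2 independent replicates per condition. Except where group means are the units, p-values and standard errors of means measure the spread between arrays within groups. They leave out the spread between the mutant groups.

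Members and the 32 gene lists were chosen with earlier results of these data known. Named genes were w, ro, ato and hh, the 15 highest and 15 lowest genes that passed with one sign in all 8 groups, a symbol other than a CG or CR number and detection on at least 12 of the 23 mutant arrays, and up to 4 passing members of each list (all of them where 5 or fewer passed), of which the text names part. Alternatives covered dye, background, normalisation, filters, scanning day, weighting, labels, groups and single arrays.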

Additional observations from a re-analysis of the deposited data

Results flagged for a closer look

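In the groups with 4 arrays, hh1 and posterior fragments, each of the 116 named genes was examined for a single array far from the other 3, and 10 such cases were found. Chance alone flags about 1 in 20 such groups. Each gene was examined in both groups, and the 10 cases were no more frequent than this rate. As a set, the cases listed next are therefore no more than chance alone gives. Among hh1 arrays the log2 ratios that stood apart were Fbp2 at 0.54 in replicate 3 (others -0.10 to -0.05), br at -0.31 in replicate 1 (others -1.13 to -1.04), stg at -1.90 in replicate 4 (others -0.88 to -0.68), Stat92E at -0.02 in replicate 2 (others -0.43 to -0.37) and Prosbeta1 at 0.05 in replicate 3 (others 0.74 to 0.76). Among posterior fragment arrays they were ng3 at 0.32 in replicate 3 (others -0.03 to -0.01), lab at -2.56 in replicate 4 (others -1.58 to -1.50), ss at 0.32 in replicate 3 (others -0.31 to -0.22), PCNA at -0.65 in replicate 1 (others -0.16 to -0.10) and chic at -0.68 in replicate 3 (others 0.08 to 0.10). In both groups replicate 4 was the only array with its test RNA in the other dye, and array values are not dye-adjusted. The stg and lab cases therefore cannot be told apart from a dye effect. 

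Of the 116 named genes, 42 differed among the 8 mutant groups in the limma F test, beside 1197 of all 11509 genes (10.4%). Most of the named genes were chosen for large values. The adjusted p among groups was 2.3e-09 for Vajk3, 3.9e-09 for E(spl)mgamma-HLH, 1.9e-08 for Xport-A, 1.3e-06 for E(spl)mdelta-HLH, 3.2e-06 for GstE6, 7.8e-06 for Nrt, 3e-05 for ru, 3.7e-05 for Vajk2 and 7.2e-05 for ng3. It was 0.00011 for chp, 0.00016 for Ank2, 0.00029 for Sps2, 0.00033 for IM33, 0.00036 for aos, 0.00054 for Hsp67Bc, 0.0015 for RpS9, 0.0026 for Spn43Aa and 0.0028 for bnb. Next came 0.0045 for Arpc1, 0.0046 for ro, 0.005 for stg, 0.0054 for if, 0.0056 for eya, 0.0057 for Dfd, 0.0061 for sev, 0.0091 for dap and 0.0096 for serp. Larger values were 0.011 for neur, 0.012 for RnrS, 0.014 for inaC, 0.015 for rho, 0.017 for ato, 0.02 for E(spl)m4-BFM, 0.021 for nrv2, 0.03 for mirr and 0.033 for verm. The last were 0.034 for LamC, 0.038 for Orc2, 0.039 for w, 0.039 for mRpL22, 0.042 for egr and 0.047 for lab.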

How the results depend on the processing

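Each of the 114 named genes called for the mutant mean kept its direction under all alternatives run, whereas 4 differences from posterior fragments, given below, turned. Most of the 114 were chosen for large values in these same arrays, which favours a kept direction. The count of 5508 probes for the mutant mean became 3221 with the deposited value table (5616 probes tested, without hh1 replicate 2), 3120 with scanning day as a random block, 1809 with scanning day as a fixed block and 2675 with genotype groups as units. At a 2-fold limit its 2756 higher probes became 27 and its 2752 lower ones 77. Leaving out single arrays gave 4762 to 5604. Mutants minus posterior fragments, with 1409 probes, became 1039 with the deposited table, 819 and 568 with scanning day as a random and a fixed block and 255 at a 2-fold limit, and single arrays left out gave 711 (without posterior replicate 4) to 1562. Differences among groups, with 1510 probes, became 1024 with the deposited table, 961 without E(roDom)2033 homozygotes and 877 with the conflicting labels read as heterozygous, and single arrays left out gave 1004 (without E(roDom)2033 homozygote replicate 3) to 1817. The fit with fewer probes in the deposited table tests fewer probes by construction, and the cause of the other changes was not tested. With roDom homozygote replicate 2 turned by its header, chosen after seeing the data, the 3 counts were 5023, 1080 and 1022. Of 114 named genes called for the mutant mean, scanning day as a fixed block ended the call of 41, genotype groups as units of 17 and the stop-furrow homozygotes alone of 16. Under scanning day as a fixed block the mutants were above posterior fragments for danr (0.53), puc (0.03), serp (0.10) and verm (0.36), where the reported difference is negative, and none of these 4 values passed. No paired analysis was possible because replicate numbers follow accession order and pair no arrays across groups. Detection limits dim probes most on posterior fragment replicate 1.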
